A study of Bos taurus and Bos indicus with 12 samples.

Results

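The genes described here encode matricellular and secreted matrix glycoproteins, and their expression was compared in the skin of cattle infested with the cattle tick and of cattle that had never met it. The 8 genes were THBS1, THBS2, TNC, SPARC, POSTN, CCDC80, OLFML3 and FBLN5, and every probe set whose platform gene symbol named one of them was used, which gave 15 of the 24016 probe sets tested. THBS1 had 6 probe sets, TNC and CCDC80 had 2 each, and the other 5 genes had 1 each. The genes were chosen by how they differed between infested and naive skin in earlier results of these same arrays. Their infested-minus-naive differences, and the difference of those differences between breeds, are therefore given as descriptions, with no p-value, and counts of calls among them stand only beside the share of all probe sets called. The contrasts between breeds were tested, although they use the same arrays. They share animals with the effects on which the genes were chosen, so calls in them are not independent of that choice.

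Matricellular proteins are secreted into the extracellular matrix but are not its main load-bearing fibres. They bind collagens, growth factors, proteases and cell surface receptors such as integrins, and they are best known from developing tissue and from wounds, where fibroblasts, macrophages and platelets release them. In skin they help to set how collagen and elastic fibres are laid down and how cells hold on to the matrix.

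Each of 12 female cattle gave 1 full-thickness skin biopsy, 8 mm across and 10 mm deep, and each RNA was hybridised to 1 Affymetrix bovine array. Infested Brahman (Bos indicus, 6 months old) and infested Holstein-Friesian (Bos taurus, 6 months old) cattle had been through repeated heavy challenges with the tick Rhipicephalus microplus and were sampled where larvae were attached. Naive Brahman cattle were 18 months old and naive Holstein-Friesian cattle 12 months old, and neither had been exposed to the tick. Each group held 3 animals. Infestation and age therefore cannot be told apart within either breed. Breed and age cannot be told apart in naive skin either, nor in the breed difference in the infestation effect, which uses the naive groups. Values are deposited log2 expression levels, so that a difference of 1 is a doubling, and levels of different probe sets were not compared with each other. A probe set was called changed at a Benjamini-Hochberg adjusted p under 0.05 over all probe sets tested, from 1 limma fit to all 12 arrays.

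The arrays fitted the label of skin, since the basal keratinocyte gene KRT14 lay between 14.22 and 14.67 and its partner KRT5 between 13.75 and 14.11 on the log2 scale over all 12 arrays. An index of RNA integrity, the mean log2 signal of the 5′ minus the 3′ probe sets of 5 control transcripts, was lowest in infested Brahman skin, at -4.91, -2.56 and -2.07. It was -2.73, -0.75 and -1.23 in infested Holstein-Friesian skin, between -1.04 and -0.85 in naive Brahman skin and between -1.39 and -0.82 in naive Holstein-Friesian skin. The index did not overlap between infested and naive Brahman animals. Values with the index as a covariate therefore cannot tell RNA integrity from infestation in that breed, and no cause is read from them. The mean of the fibroblast markers, all 6 measured, lay 0.23 to 0.55 above the mean of the naive animals on the log2 scale in infested Brahman skin and 0.37 to 0.67 above it in infested Holstein-Friesian skin, against -0.32 to 0.28 in naive Brahman and -0.26 to 0.16 in naive Holstein-Friesian skin. The 5 of 6 macrophage markers measured lay 0.99 to 1.77 and 1.31 to 1.73 above it in infested Brahman and infested Holstein-Friesian skin, against -0.30 to 0.26 and -0.41 to 0.47 in the naive groups of the same breeds. In bulk skin, more cells of a type and more RNA per cell cannot be told apart, and the part of age, RNA integrity or cell content in any difference below was not tested.

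In infested Holstein-Friesian skin, 4 of the 15 probe sets were called higher than in naive Holstein-Friesian skin, 1 each of THBS1, THBS2, CCDC80 and FBLN5, where 2.68% of all probe sets were called higher. Another THBS1 probe set was called lower, where 2.34% of all were. The median difference of the 15 was 0.50 on the log2 scale, against -0.03 over all probe sets. In infested Brahman skin, 6 of the 15 were called higher than in naive Brahman skin, 1 each of THBS1, THBS2, TNC, CCDC80, OLFML3 and FBLN5, where 9.54% of all probe sets were called higher, and the same THBS1 probe set was called lower, where 10.2% of all were. The median difference was 0.51, against 0.04 over all. The members were picked on these contrasts, so nothing was read from the counts. THBS2, FBLN5, CCDC80 Bt.7788.1.S1_at and THBS1 Bt.23493.1.S1_at were higher in all 3 infested than in all 3 naive animals of both breeds. So, by smaller differences, were THBS1 Bt.5301.2.A1_at and TNC Bt.5244.1.A1_at. OLFML3 and TNC Bt.11061.1.S1_at were so in Brahman cattle and overlapped in Holstein-Friesian cattle, and THBS1 Bt.5301.1.S1_at the reverse. THBS1 Bt.5301.2.S1_a_at was lower without overlap in both breeds. The share of all probe sets without overlap was not counted, so nothing is read from the separation of groups, here or below.

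**Figure D1:**
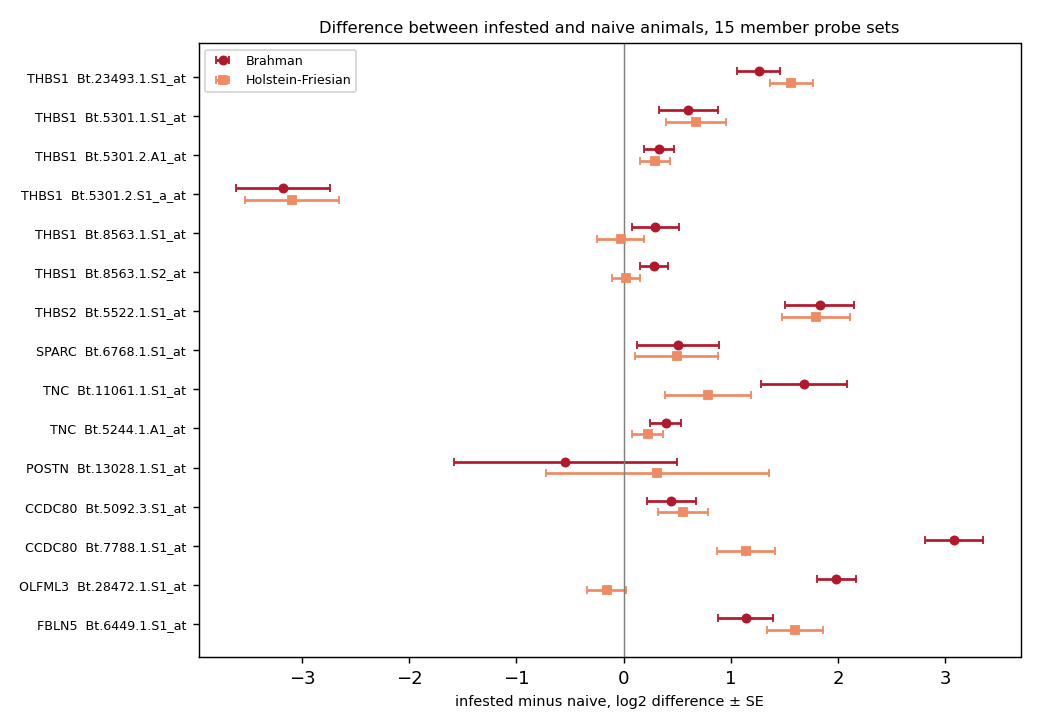
Infested-minus-naive log2 differences with standard errors of all 15 probe sets, for Brahman (circles, upper) and Holstein-Friesian (squares, lower) skin, 3 animals per group. CCDC80 Bt.7788.1.S1_at and OLFML3 lie further right in Brahman skin, THBS1 Bt.5301.2.S1_a_at lies near -3 in both breeds, and POSTN has the widest error bars.

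THBS1, thrombospondin 1, is a large trimeric glycoprotein of platelet granules and wound macrophages that can release TGF-beta from its latent form and binds the receptors CD36 and CD47. Its 6 probe sets did not behave alike. The probe set Bt.23493.1.S1_at read 8.20, 7.99 and 8.42 in infested Brahman skin, against 6.83, 7.21 and 6.79 in naive Brahman skin. It read 8.44, 9.16 and 8.61 in infested Holstein-Friesian skin, against 7.28, 7.09 and 7.15 in naive Holstein-Friesian skin. All 6 infested animals lay above all 6 naive animals. The difference was 1.26 ± 0.20 on the log2 scale (SE, n = 3 per group), or 2.40-fold, in Brahman and 1.57 ± 0.20, or 2.96-fold, in Holstein-Friesian skin.

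A second THBS1 probe set, Bt.5301.2.S1_a_at, went the other way. It read 5.79, 5.65 and 5.22 in infested Brahman skin, against 8.31, 8.86 and 9.03 in naive Brahman skin, and 4.80, 6.98 and 5.66 in infested Holstein-Friesian skin, against 8.77, 9.17 and 8.78 in naive Holstein-Friesian skin. Every infested animal lay below every naive animal. The difference was -3.18 ± 0.44, 9.06-fold lower, in Brahman and -3.09 ± 0.44, 8.53-fold lower, in Holstein-Friesian skin. These differences were larger in size than those of any other THBS1 probe set. The ending _a_at is the manufacturer's mark for probes shared by several transcripts of a gene.

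The remaining 4 THBS1 probe sets moved less. Bt.5301.1.S1_at, designed on the reference mRNA of THBS1, read 12.23, 11.37 and 11.94 in infested Brahman skin, against 11.03, 11.40 and 11.30 in naive Brahman skin. It read 11.66, 12.77 and 12.01 in infested Holstein-Friesian skin, against 11.55, 11.52 and 11.35 in naive Holstein-Friesian skin. The groups overlapped in Brahman but not in Holstein-Friesian cattle, and the differences were 0.60 ± 0.28 and 0.67 ± 0.28. Bt.5301.2.A1_at was designed on a GenBank mRNA, as was the probe set that was lower, and shares the number 5301.2 with it. It was 0.33 ± 0.14 higher in Brahman and 0.29 ± 0.14 higher in Holstein-Friesian skin, without overlap of the groups in either breed. Bt.8563.1.S1_at and Bt.8563.1.S2_at differed by 0.30 ± 0.22 and 0.28 ± 0.13 in Brahman skin and by -0.03 ± 0.22 and 0.02 ± 0.13 in Holstein-Friesian skin, and their groups overlapped. Which transcript of THBS1 each probe set reads was not analysed here, so no single direction is given for the gene. Calls in both directions within a gene were not rare on these arrays. They occurred in 85 of 266 genes (32.0%) with 2 or more called probe sets in Brahman skin and in 4 of 42 (9.52%) in Holstein-Friesian skin.

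**Figure D2:**
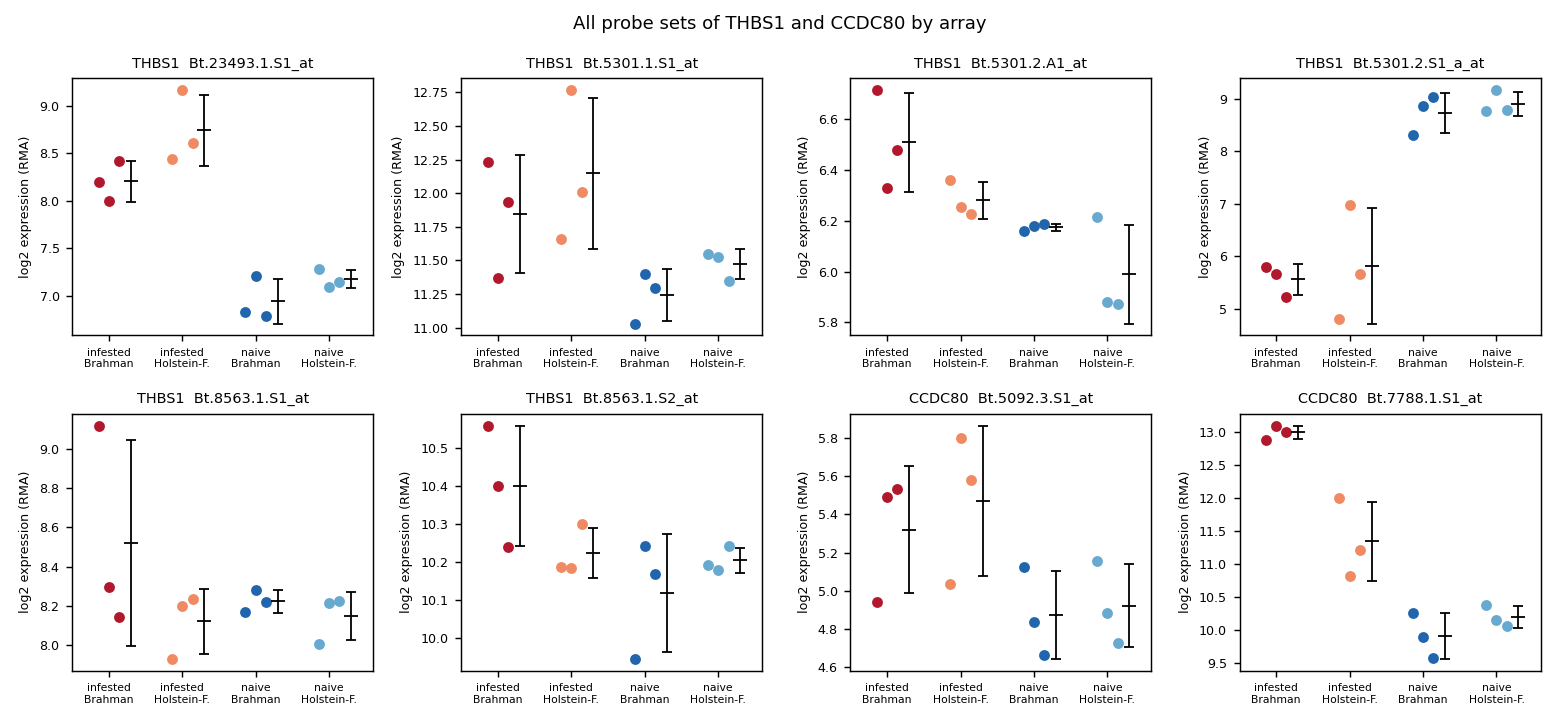
Log2 expression on each of the 12 arrays for the 6 probe sets of THBS1 and the 2 of CCDC80, with the mean and SD of 3 animals beside each group and a separate scale in each panel. THBS1 Bt.23493.1.S1_at is higher and Bt.5301.2.S1_a_at lower in all 6 infested animals, and CCDC80 Bt.7788.1.S1_at is highest in the 3 infested Brahman animals.

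THBS2, thrombospondin 2, is a close relative of THBS1 that fibroblasts secrete and that limits the growth of vessels and shapes collagen fibrils in mouse skin. Its probe set read 10.34, 10.12 and 9.79 in infested Brahman skin, against 8.02, 8.77 and 7.97 in naive Brahman skin. In infested Holstein-Friesian skin it read 10.57, 10.41 and 9.71, against 7.82, 8.70 and 8.76 in naive Holstein-Friesian skin. All 6 infested animals lay above all 6 naive animals, whatever their breed. The difference was 1.83 ± 0.32, or 3.55-fold, in Brahman and 1.80 ± 0.32, or 3.48-fold, in Holstein-Friesian skin. The breeds were not distinguished: Brahman minus Holstein-Friesian was -0.15 in infested skin (95% interval, not adjusted for the number of tests, -0.85 to 0.56, adjusted p = 0.866) and -0.18 in naive skin (-0.88 to 0.53, adjusted p = 1).

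TNC, tenascin C, is a large multimeric glycoprotein that appears at wound edges and under migrating keratinocytes and that loosens the hold of cells on fibronectin. Its probe set Bt.11061.1.S1_at read 10.00, 9.28 and 8.56 in infested Brahman skin, against 7.13, 7.75 and 7.91 in naive Brahman skin. In infested Holstein-Friesian skin it read 10.57, 10.09 and 9.93, against 9.07, 10.18 and 8.99 in naive Holstein-Friesian skin. The groups were apart in Brahman cattle and overlapped in Holstein-Friesian cattle through 1 naive animal at 10.18. The difference was 1.69 ± 0.40, or 3.22-fold, in Brahman and 0.78 ± 0.40, or 1.72-fold, in Holstein-Friesian skin, and the Brahman value was 0.96 with the RNA integrity index as a covariate.

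Naive skin of the breeds did not overlap for TNC, with all 3 naive Brahman animals below all 3 naive Holstein-Friesian animals. The difference was -1.81 ± 0.40 and did not pass over all probe sets (adjusted p = 0.272, range over 21 other settings 0.0144 to 0.718). In infested skin the breeds overlapped and differed by -0.91 ± 0.40 (adjusted p = 0.369). The second TNC probe set, Bt.5244.1.A1_at, lay between 5.85 and 6.24 in infested Brahman skin, against 5.45 to 5.84 in naive Brahman skin, and between 5.84 and 5.91 in infested Holstein-Friesian skin, against 5.64 to 5.69 in naive Holstein-Friesian skin. Its groups did not overlap in either breed, and its differences were small, at 0.39 ± 0.14 and 0.22 ± 0.14.

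SPARC, also called osteonectin, is a collagen-binding glycoprotein that is needed for normal collagen fibrils in mouse skin. It read 11.36, 13.11 and 13.07 in infested Brahman skin, against 11.91, 12.16 and 11.94 in naive Brahman skin. It read 12.47, 12.94 and 12.83 in infested Holstein-Friesian skin, against 11.98, 12.50 and 12.28 in naive Holstein-Friesian skin. Infested Brahman replicate 1, whose RNA integrity index was the lowest of all, had the lowest SPARC value of the 12 arrays, and the other 2 infested Brahman animals had the highest. The differences were 0.51 ± 0.38 in Brahman and 0.50 ± 0.38 in Holstein-Friesian skin. Without infested Brahman replicate 1 the Brahman difference was 1.08, and with the index as a covariate it was 1.69. The breeds differed by -0.23 in infested skin (95% interval -1.08 to 0.61, adjusted p = 0.811), and the sign of this value turned in several other settings.

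POSTN, periostin, is a fasciclin-domain protein that binds collagen and integrins and that TGF-beta and type 2 cytokines induce in human fibroblasts. It read 5.20, 6.10 and 8.44 in infested Brahman skin, against 6.76, 6.89 and 7.73 in naive Brahman skin. In infested Holstein-Friesian skin it read 5.85, 10.37 and 9.50, against 7.97, 8.29 and 8.49 in naive Holstein-Friesian skin. The infested animals thus lay on both sides of the naive ones. Its residual SD of 1.49 on the log2 scale was larger than that of 99.85% of probe sets. The 3 lowest readings were on the 3 arrays of lowest RNA integrity index, infested Brahman replicates 1 and 2 and infested Holstein-Friesian replicate 1.

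No direction could be given for POSTN. The difference was -0.54 ± 1.04 in Brahman skin and 0.32 ± 1.04 in Holstein-Friesian skin. The Brahman value was 2.43 with the index as a covariate, and the Holstein-Friesian value was 1.68 without infested replicate 1 and -0.58 without infested replicate 2. Between the breeds, naive Brahman animals were all below naive Holstein-Friesian animals, by -1.13 ± 1.04 (adjusted p = 1). In infested skin Brahman minus Holstein-Friesian was -1.99 ± 1.04 (adjusted p = 0.442, range over 21 other settings 0.0301 to 0.982). It passed in 2 of those settings, at -3.35 without infested Holstein-Friesian replicate 1 (adjusted p = 0.0324) and at -2.66 without that array and infested Brahman replicate 1 (adjusted p = 0.0301), and it was 0.15 with the index as a covariate.

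**Figure D3:**
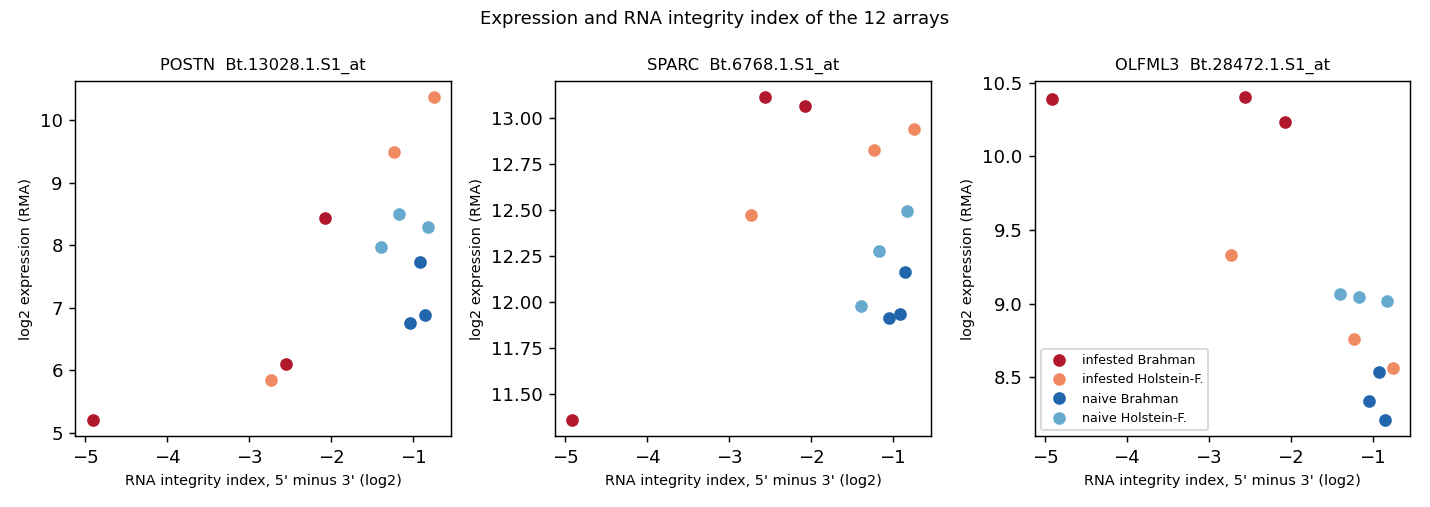
Log2 expression of POSTN, SPARC and OLFML3 on each of the 12 arrays against the RNA integrity index of the array, with less negative index values to the right and 1 point per animal. POSTN is lowest on the 3 arrays of lowest index and SPARC on the array at -4.91. OLFML3 lies between 10.24 and 10.40 in infested Brahman skin. In infested Holstein-Friesian skin it is highest, at 9.33, on the array at -2.73, the lowest index of that group.

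CCDC80 is a secreted matrix protein with a domain also found in SRPX that is abundant in mouse fat and stroma, and its probe sets disagreed in size. Bt.7788.1.S1_at read 12.89, 13.10 and 13.01 in infested Brahman skin, against 10.27, 9.90 and 9.57 in naive Brahman skin. It read 12.00, 10.82 and 11.22 in infested Holstein-Friesian skin, against 10.39, 10.15 and 10.06 in naive Holstein-Friesian skin. The infested animals of both breeds lay above all naive animals, and the infested Brahman animals above all others. Infested Holstein-Friesian replicate 1, whose RNA integrity index was the lowest of its group, had the highest value of that group, at 12.00. The difference was 3.09 ± 0.27, or 8.49-fold, in Brahman and 1.15 ± 0.27, or 2.21-fold, in Holstein-Friesian skin. The Holstein-Friesian value lay between 0.82 and 1.41 in 21 other settings, and its call held in 13 of them. No other member probe set was as much higher in infested than in naive skin of either breed as this one in Brahman cattle.

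Infested Brahman skin held more CCDC80 by this probe set than infested Holstein-Friesian skin, with means of 13.00 ± 0.11 and 11.35 ± 0.60 (SD, n = 3 each). The breed difference was 1.65 ± 0.27 on the log2 scale, or 3.14-fold, and just passed the threshold (adjusted p = 0.0476). It kept its sign in 21 of 21 other settings but passed in 8 of them, with adjusted p between 0.00148 and 0.46. Leaving out any 1 array except infested Holstein-Friesian replicate 1 or infested Brahman replicate 1 ended the call, with values between 1.39 and 1.65 and adjusted p up to 0.164. The call was also lost with cyclic loess (1.70, adjusted p = 0.0618), with only the 6 infested arrays in the fit (1.65, adjusted p = 0.46) and with the RNA integrity index as a covariate (1.40, adjusted p = 0.146). In naive skin the breeds overlapped, and Brahman minus Holstein-Friesian was -0.29 (95% interval -0.88 to 0.30, adjusted p = 1).

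The second CCDC80 probe set, Bt.5092.3.S1_at, was a dim one and separated no groups. It read 4.94, 5.49 and 5.53 in infested Brahman skin, against 5.12, 4.83 and 4.66 in naive Brahman skin. It read 5.03, 5.80 and 5.58 in infested Holstein-Friesian skin, against 5.15, 4.88 and 4.73 in naive Holstein-Friesian skin. In each breed 2 infested animals lay above all naive ones and replicate 1 did not. The differences were 0.45 ± 0.23 and 0.55 ± 0.23. The infested breeds differed by -0.15 (95% interval -0.66 to 0.36, adjusted p = 0.797), so that the breed difference seen with the brighter probe set was not seen with this one.

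OLFML3 is a secreted olfactomedin-domain glycoprotein known in mouse for binding BMP4 and for a role in vessel growth. It read 10.39, 10.40 and 10.24 in infested Brahman skin, against 8.34, 8.21 and 8.53 in naive Brahman skin. It read 9.33, 8.56 and 8.76 in infested Holstein-Friesian skin, against 9.07, 9.01 and 9.04 in naive Holstein-Friesian skin. Infested Brahman animals were apart from every other animal, and infested Holstein-Friesian animals lay on both sides of the naive animals of their breed. Infested Holstein-Friesian replicate 1, whose RNA integrity index was the lowest of its group, had the highest value of that group, at 9.33. The difference was 1.98 ± 0.18, or 3.96-fold, in Brahman skin and -0.16 ± 0.18 in Holstein-Friesian skin.

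Between the breeds, OLFML3 was 1.46 ± 0.18 higher on the log2 scale, or 2.75-fold, in infested Brahman than in infested Holstein-Friesian skin (adjusted p = 0.0102). The call held in 17 of 21 other settings, whose adjusted p ran between 0.000651 and 0.342. It was lost without infested Holstein-Friesian replicate 2 (1.30, adjusted p = 0.0586), without replicate 3 of that group (1.40, adjusted p = 0.0649), with only the 6 infested arrays in the fit (1.46, adjusted p = 0.342) and with the index as a covariate (1.22, adjusted p = 0.0559). In naive skin the order was turned, with all 3 Brahman animals below all 3 Holstein-Friesian animals and a difference of -0.68 ± 0.18 that did not pass (adjusted p = 0.445, range 0.0137 to 1).

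FBLN5, fibulin 5, is a calcium-binding glycoprotein that guides elastin onto microfibrils, and mice without it have loose skin. It read 10.70, 10.13 and 10.42 in infested Brahman skin, against 8.66, 9.37 and 9.80 in naive Brahman skin. In infested Holstein-Friesian skin it read 10.38, 10.45 and 10.07, against 8.56, 8.72 and 8.81 in naive Holstein-Friesian skin. Infested animals lay above all naive animals, and naive Brahman cattle spread more than the other groups. The difference was 1.14 ± 0.26, or 2.20-fold, in Brahman skin, between 0.83 and 1.40 on leaving out 1 array, and 1.60 ± 0.26, or 3.03-fold, in Holstein-Friesian skin. Brahman minus Holstein-Friesian was 0.12 in infested skin (95% interval -0.45 to 0.69, adjusted p = 0.868) and 0.58 in naive skin (0.007 to 1.14, adjusted p = 1).

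**Figure D4:**
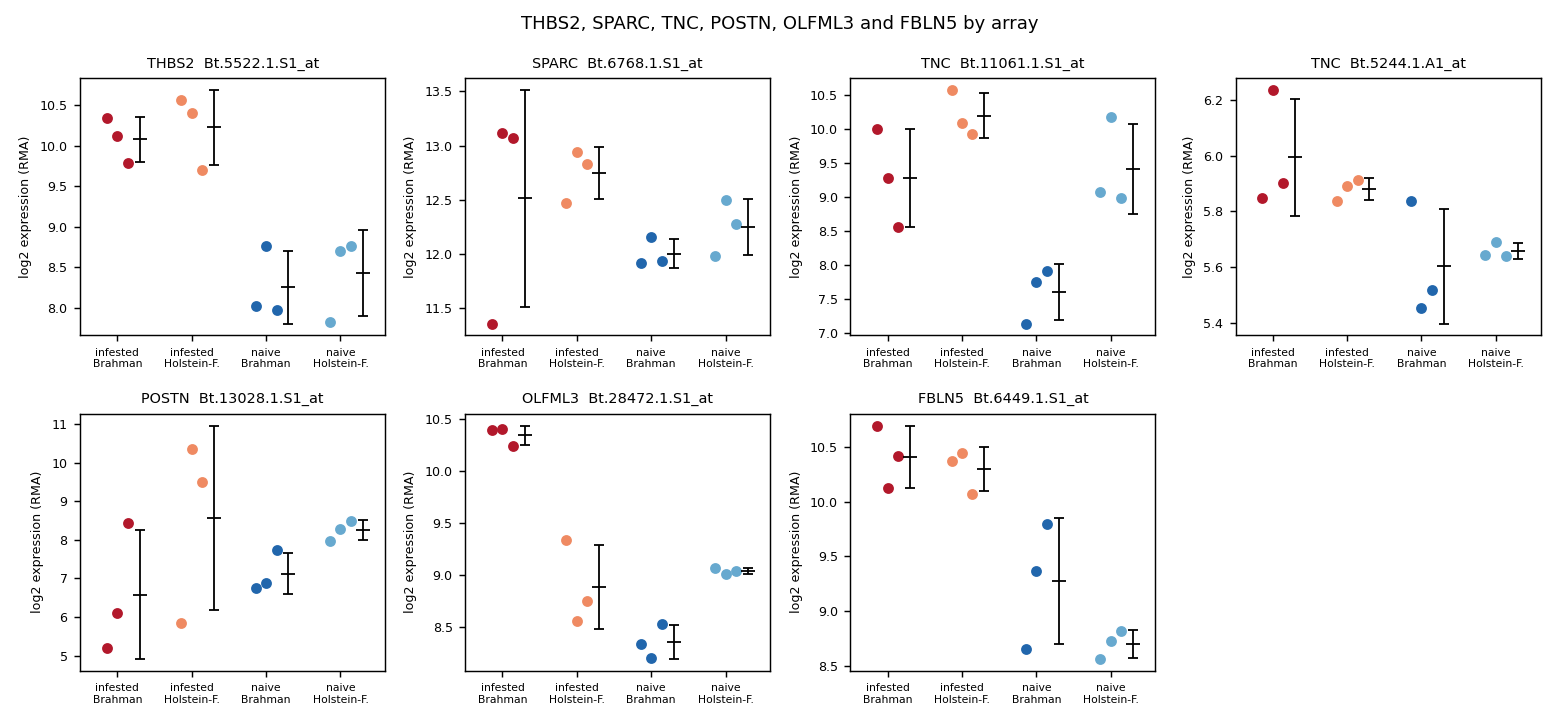
Log2 expression on each of the 12 arrays for THBS2, SPARC, the 2 probe sets of TNC, POSTN, OLFML3 and FBLN5, with the mean and SD of 3 animals beside each group and a separate scale in each panel. Infested and naive animals are apart for THBS2 and FBLN5 in both breeds, OLFML3 is between 10.24 and 10.40 in infested Brahman animals alone, and naive Brahman animals lie below naive Holstein-Friesian animals for TNC Bt.11061.1.S1_at.

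Across all members, 2 of 15 probe sets, CCDC80 Bt.7788.1.S1_at and OLFML3, were called higher in infested Brahman than in infested Holstein-Friesian skin, where 0.125% of all probe sets were, and 0 were called lower, where 0.0416% were. The same infested animals entered the effects on which the members were picked, so these calls are not independent of that choice. In naive skin 0 were called in either direction by limma, where 0.0125% of all were higher and 0.0125% lower in Brahman. There 3 of the 15 had an unadjusted p under 0.05, and 1149 of all 24016 probe sets had one. For THBS1 Bt.23493.1.S1_at, infested Brahman animals lay just below all infested Holstein-Friesian animals, by -0.54 ± 0.20 (adjusted p = 0.316). The infestation effect in Brahman minus that in Holstein-Friesian skin was 2.14 ± 0.26 for OLFML3 and 1.94 ± 0.38 for CCDC80 Bt.7788.1.S1_at on the log2 scale. The other 13 probe sets lay between -0.86 ± 1.47, for POSTN, and 0.90 ± 0.57, for TNC Bt.11061.1.S1_at. The members were picked on these effects, so no call is read from these values.

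Genes that act with the members were taken from 4 lists of 97 genes, of which 59 were measured. The lists were also drawn up with results of these data known, so their counts and adjusted p-values are not independent of that choice. In infested Holstein-Friesian skin 8 of the 59 rose and 2 fell against naive Holstein-Friesian skin, where 2.68% of all probe sets rose and 2.34% fell (median 0.34 on the log2 scale, -0.03 over all probe sets). In infested Brahman skin 12 rose and 4 fell against naive Brahman skin, where 9.54% of all probe sets rose and 10.2% fell (median 0.26, 0.04 over all). None was called between the breeds by limma in infested skin or in naive skin, and none for the breed difference in the effect, for which 0.00416% of all probe sets were called higher and 0% lower in Brahman. At an unadjusted p under 0.05 there were 5, 6 and 9 of the 59, and 3117, 1149 and 1792 of all 24016 probe sets. Each gene was counted by its brightest probe set. Of the dimmer ones, 5 passed in Brahman and 1 in Holstein-Friesian skin, and they are named below after their values were seen.

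Among 20 measured paralogs and other matricellular glycoproteins, 5 rose in Brahman skin and 5 in Holstein-Friesian skin, and none fell by the brightest probe set, where 9.54% of all rose and 10.2% fell in Brahman skin and 2.68% rose and 2.34% fell in Holstein-Friesian skin. A dimmer probe set of SMOC2, a relative of SPARC, fell in Holstein-Friesian skin, by 1.03 on the log2 scale (adjusted p = 0.0317), while its brightest differed by -0.75 (adjusted p = 0.0961). FN1, fibronectin, the provisional matrix of wounds, read 11.98 to 12.35 in infested Brahman skin, against 10.24 to 10.48 in naive Brahman skin, a difference of 1.75 ± 0.19 (adjusted p = 0.00058). In Holstein-Friesian skin it was 1.23 ± 0.19 (adjusted p = 0.0093, and 0.0533 without naive Holstein-Friesian replicate 1). Its second probe set rose by 0.72 in Brahman skin (adjusted p = 0.0493) and differed by 0.43 in Holstein-Friesian skin (adjusted p = 0.315). TGFBI, a fasciclin-domain relative of POSTN, rose by 1.65 ± 0.25 in Brahman (adjusted p = 0.00227) and 1.07 ± 0.25 in Holstein-Friesian skin (adjusted p = 0.0376). SRPX, which shares a domain with CCDC80, rose by 1.44 ± 0.13 (adjusted p = 0.000229) and 0.67 ± 0.13 (adjusted p = 0.0196). FN1, TGFBI and SRPX were apart between infested and naive animals in both breeds. In Holstein-Friesian skin the call of TGFBI was lost on leaving out any infested array of the breed, naive Holstein-Friesian replicate 1 or 3 or naive Brahman replicate 1 (adjusted p up to 0.14) and that of SRPX without naive replicate 1 or 2 or infested replicate 3 (up to 0.0844).

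The other called genes of that list passed in 1 breed. THBS4, a pentameric thrombospondin of tendon and muscle, read 10.33, 10.92 and 9.65 in infested Holstein-Friesian skin, against 8.22, 7.68 and 7.78 in naive Holstein-Friesian skin, and rose by 2.41 ± 0.42 (adjusted p = 0.0142, and 0.0518 without naive replicate 2). In Brahman skin it read 10.26, 9.49 and 8.59, against 8.90, 8.64 and 9.41, a difference of 0.47 ± 0.42 (adjusted p = 0.457). The difference between the breeds in this effect was -1.94 ± 0.59 and did not pass (adjusted p = 0.589). CCN2, a matricellular target of TGF-beta, rose by 1.32 ± 0.34 in Holstein-Friesian skin (adjusted p = 0.0482), a call that was lost with the replicate number as a block (adjusted p = 0.0815) and on leaving out any 1 array other than infested Holstein-Friesian or infested Brahman replicate 1 (up to 0.168). In Brahman skin CCN5, of the same family, rose by 1.50 ± 0.32 (adjusted p = 0.00983), and was 0.86 with the RNA integrity index as a covariate (adjusted p = 0.212). SRPX2, which binds the urokinase receptor in human cells, rose there by 0.51 ± 0.15 (adjusted p = 0.0369, and up to 0.117 on leaving out any 1 naive Brahman array, infested Brahman replicate 1 or 2 or naive Holstein-Friesian replicate 1 or 3). It was 0.23 with the index as a covariate (adjusted p = 0.508) and 0.37 without the 2 arrays of lowest index (adjusted p = 0.0704). The other SRPX2 probe set rose by 0.78 in Brahman skin (adjusted p = 0.0462). With only the 6 arrays compared in the fit, the adjusted p was 0.0631 for TGFBI and 0.0825 for CCN2 in Holstein-Friesian skin and 0.106 for SRPX2 in Brahman skin. With cyclic loess it was 0.0506 for TGFBI and 0.0538 for CCN2.

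Of 15 elastic fibre genes, 4 rose in Brahman and 1 in Holstein-Friesian skin and none fell by the brightest probe set, where 9.54% and 2.68% of all probe sets rose. A dimmer probe set of EFEMP1, fibulin 3, also rose in Brahman skin, by 1.84 ± 0.37 (adjusted p = 0.00798), while its brightest differed by 0.69 (adjusted p = 0.0752). FBN1, fibrillin 1, the core of the microfibrils on which FBLN5 acts, read 12.00 to 12.78 in infested Brahman skin, against 10.23 to 10.76 in naive Brahman skin, and 11.83 to 12.27 in infested Holstein-Friesian skin, against 10.20 to 11.14 in naive Holstein-Friesian skin. It rose by 2.04 ± 0.28 (adjusted p = 0.00142) and 1.46 ± 0.28 (adjusted p = 0.0188). EFEMP2, fibulin 4, rose by 1.35 ± 0.23 in Brahman skin (adjusted p = 0.00338) and differed by 0.13 in Holstein-Friesian skin. LOXL4, a lysyl oxidase that cross-links collagen and elastin, rose by 2.08 ± 0.52 (adjusted p = 0.0186) and LTBP2, a latent TGF-beta binding protein of microfibrils, by 0.49 ± 0.15 (adjusted p = 0.0408), both in Brahman skin. The other LTBP2 probe set differed by 0.22 there (adjusted p = 0.572). With the RNA integrity index as a covariate LOXL4 was 2.11 (adjusted p = 0.13) and LTBP2 0.32 (adjusted p = 0.391), and neither passed with only the 6 Brahman arrays in the fit (adjusted p = 0.061 and 0.083). LTBP2 was also lost with array weights, another prior, the filter on dim probe sets and without the 2 arrays of lowest index (adjusted p between 0.0531 and 0.0882). The call of FBN1 in Holstein-Friesian skin was lost without naive replicate 1 or 3 or infested replicate 3 (adjusted p up to 0.0844), that of LOXL4 without naive Brahman replicate 1 or 2 or infested Brahman replicate 2 (up to 0.0709) and that of LTBP2 on leaving out any 1 array other than infested Brahman replicate 2, infested Holstein-Friesian replicate 1 and naive Holstein-Friesian replicate 3 (up to 0.112). ELN, elastin itself, differed by -0.15 ± 0.55 in Brahman and 0.24 ± 0.55 in Holstein-Friesian skin (adjusted p = 0.876 and 0.848).

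**Figure D5:**
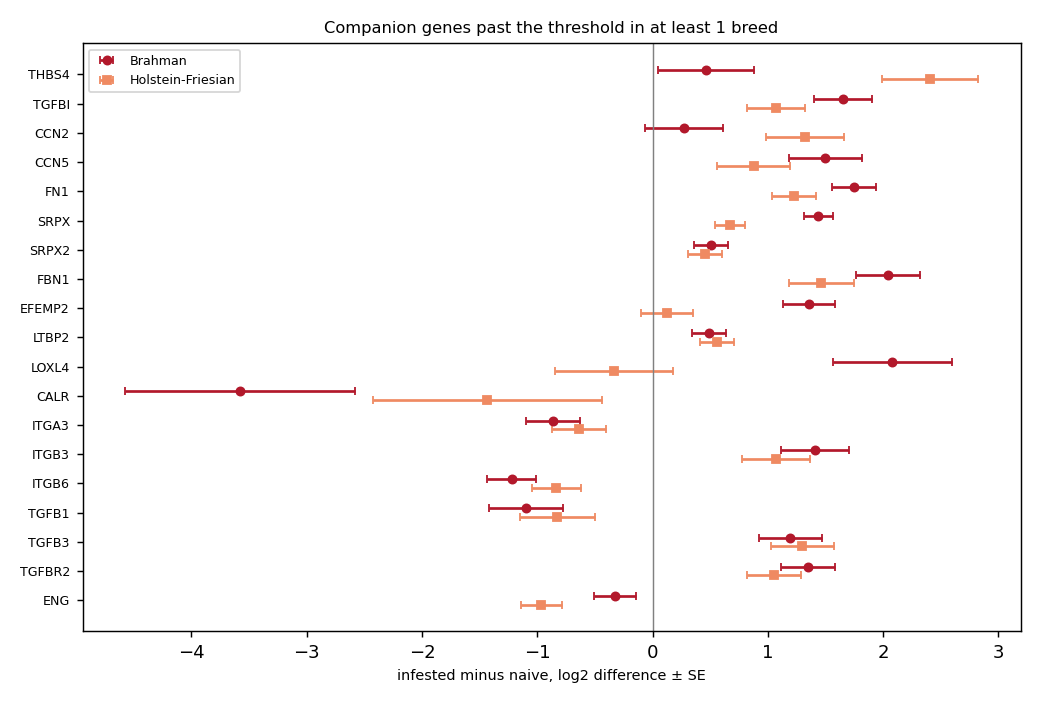
Infested-minus-naive log2 differences with standard errors for the 19 partner genes that passed the threshold in at least 1 breed, for Brahman (circles, upper) and Holstein-Friesian (squares, lower) skin, 3 animals per group. FN1, TGFBI, SRPX, FBN1, TGFB3 and TGFBR2 lie to the right and ITGB6 to the left of 0 in both breeds, and CALR has the widest error bars.

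Among 12 measured cell surface receptors, 1 rose and 3 fell in Brahman skin, where 9.54% of all probe sets rose and 10.2% fell, and 0 rose and 1 fell in Holstein-Friesian skin, where 2.68% rose and 2.34% fell. ITGB3, the beta chain of the vitronectin and platelet integrins, rose by 1.41 ± 0.29 in Brahman skin (adjusted p = 0.00916), while its other 3 probe sets did not pass. It was 0.75 with the RNA integrity index as a covariate (adjusted p = 0.206). ITGB6, an epithelial integrin chain that activates TGF-beta and binds TNC, read 5.79 to 6.01 in infested Brahman skin, against 6.81 to 7.56 in naive Brahman skin, and fell by 1.22 on the log2 scale (adjusted p = 0.00396). In Holstein-Friesian skin its difference was -0.83 ± 0.21 (adjusted p = 0.0469), and the call was lost with the replicate number as a block (0.0646), median centring (0.0624) and another prior (0.0554) and on leaving out any 1 array other than replicate 1 of infested Brahman, infested Holstein-Friesian and naive Brahman (up to 0.172). ITGA3, a laminin receptor chain, was -0.86 ± 0.23 in Brahman skin (adjusted p = 0.0267, and up to 0.0829 without naive replicate 1 or 2). It was -0.57 without infested Brahman replicate 1 (adjusted p = 0.0407), -0.50 with the index (adjusted p = 0.377), and did not pass with only the 6 Brahman arrays (adjusted p = 0.0887). CALR, calreticulin, part of a receptor complex for THBS1, read 4.60, 8.51 and 9.21 in infested Brahman skin, against 11.09, 10.96 and 11.02 in naive Brahman skin, lowest on the array of lowest RNA integrity. Its difference was -3.58 ± 0.99 (adjusted p = 0.0296, and up to 0.0844 on leaving out any 1 naive Brahman array) and became -0.20 with the index as a covariate (adjusted p = 0.729). It was -2.16 without infested Brahman replicate 1 (adjusted p = 0.0274), and did not pass with only the 6 Brahman arrays (adjusted p = 0.0816). CD36, the scavenger receptor that THBS1 and THBS2 bind, differed by 0.61 ± 0.42 in Brahman and 1.45 ± 0.42 in Holstein-Friesian skin (adjusted p = 0.329 and 0.071), and CD47 by -0.68 ± 0.23 and 0.27 ± 0.23 (adjusted p = 0.061 and 0.55).

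Among 12 measured genes of the TGF-beta axis, which induces several members and which THBS1 can activate, 2 rose and 1 fell in each breed by the brightest probe set, where 9.54% of all rose and 10.2% fell in Brahman skin and 2.68% rose and 2.34% fell in Holstein-Friesian skin. In Brahman skin a dimmer probe set of SMAD3, which carries the TGF-beta signal to the nucleus, rose by 1.14 (adjusted p = 0.0306), and one of TGIF1, a repressor of that signal, fell by 1.63 (adjusted p = 0.034). Their brightest probe sets differed by -0.07 and -0.37 and did not pass. TGFB3, 1 of the 3 ligands, rose by 1.19 ± 0.27 in Brahman (adjusted p = 0.0135) and 1.30 ± 0.27 in Holstein-Friesian skin (adjusted p = 0.0265). In Brahman skin it was 1.86 with the index as a covariate (adjusted p = 0.0061) and did not pass with only the 6 Brahman arrays (adjusted p = 0.0591). TGFBR2, the receptor that binds the ligand, rose by 1.35 ± 0.23 (adjusted p = 0.00414) and 1.05 ± 0.23 (adjusted p = 0.032), while its other probe set differed by 0.24 and -0.11 and did not pass. With the index as a covariate the Brahman call of TGFBR2 was lost (1.23, adjusted p = 0.0566). TGFB1, another ligand, fell by 1.10 in Brahman skin (adjusted p = 0.0369) and was -0.83 in Holstein-Friesian skin (adjusted p = 0.167). The Brahman value was -0.46 with the index (adjusted p = 0.54) and -0.67 without infested Brahman replicate 1 (adjusted p = 0.0595), and it did not pass with only the 6 Brahman arrays (adjusted p = 0.114). ENG, endoglin, an endothelial co-receptor, was -0.97 ± 0.18 in Holstein-Friesian skin (adjusted p = 0.0177) and -0.33 in Brahman skin (adjusted p = 0.223). In Holstein-Friesian skin TGFB3 and TGFBR2 lost their calls on leaving out any 1 naive array or infested replicate 2 or 3 (adjusted p up to 0.0967 and 0.117), and ENG without naive replicate 1 or 2 or infested replicate 2 or 3 (up to 0.0691). TGFB1 lost its call in Brahman skin on leaving out infested Brahman replicate 1, naive Brahman replicate 2 or 3 or naive Holstein-Friesian replicate 1 or 2 (up to 0.116). The lists name what the genes are known for, and their counts do not measure the activity of the pathway.

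Beside these values stand the cell markers that moved in the same animals. PDGFRA, a fibroblast receptor, rose by 1.42 in Brahman (adjusted p = 0.00569) and 1.13 in Holstein-Friesian skin (adjusted p = 0.0381). PDGFRB went the other way, at -0.23 and -0.54, and did not pass (adjusted p = 0.292 and 0.058). THY1, at -0.68 and 0.03, and S100A4, at 0.20 and -0.17, did not pass either. Of the 6 fibroblast markers, 1 rose in Brahman and 3 in Holstein-Friesian skin, where 9.54% and 2.68% of all probe sets rose. None of the 6 fell, where 10.2% and 2.34% of all fell. MSR1, a macrophage scavenger receptor, rose by 2.14 (adjusted p = 0.000184) and 1.83 (adjusted p = 0.00191). Of the platelet markers 2 of 6 were measured: PF4 rose by 2.29 in Holstein-Friesian skin (adjusted p = 0.00634) and differed by 0.28 in Brahman skin (adjusted p = 0.561). ITGA2B went the other way, at -0.45 in Holstein-Friesian and -0.33 in Brahman skin, and did not pass (adjusted p = 0.13 and 0.168). The mean of the adipocyte markers, 4 of 5 measured, lay 0.85 to 1.60 above the naive mean in infested Brahman skin, the group in which CCDC80 and OLFML3 were highest, and -0.24 to 0.47 in infested Holstein-Friesian skin, against -0.71 to 0.61 in naive Brahman and -0.40 to 0.47 in naive Holstein-Friesian skin. CIDEC rose in Brahman skin, by 1.73 (adjusted p = 0.0281). LEP, dim at 4.31 to 5.06 over all arrays, rose there by 0.52 (adjusted p = 0.0248). ADIPOQ and FABP4 differed there by 0.71 and 1.54 and did not pass (adjusted p = 0.0612 and 0.373). No adipocyte marker passed in Holstein-Friesian skin. Smooth muscle and pericyte markers, 5 of 5 measured, lay at -1.39 to -0.30 in infested Brahman and -0.58 to -0.15 in infested Holstein-Friesian skin, against -0.22 to -0.07 in naive Brahman and -0.21 to 0.36 in naive Holstein-Friesian skin. In Brahman skin 3 of the 5 fell, where 10.2% of all probe sets fell. RGS5 of this list went the other way, at 0.90 in Brahman and 0.24 in Holstein-Friesian skin, and did not pass (adjusted p = 0.0943 and 0.753). Endothelial markers, 5 of 5 measured, lay at -0.44 to -0.35 in infested Brahman and -0.29 to -0.06 in infested Holstein-Friesian skin, against -0.16 to -0.007 in naive Brahman and -0.06 to 0.30 in naive Holstein-Friesian skin. Of these TIE1, an endothelial receptor, fell in Brahman skin, by 1.17 (adjusted p = 0.0334), and did not pass in Holstein-Friesian skin (adjusted p = 0.115). CDH5 went the other way in Brahman skin, at 0.27 (adjusted p = 0.208), and PECAM1 in Holstein-Friesian skin, at 0.22 (adjusted p = 0.627). In Brahman skin PECAM1, KDR and VWF were -0.0063, -0.068 and -0.53 and did not pass (adjusted p = 0.988, 0.805 and 0.365). Skeletal muscle markers, 3 of 4 measured, lay at -0.86 to -0.50 in infested Brahman and -1.07 to -0.45 in infested Holstein-Friesian skin, against -1.19 to 1.23 in naive Brahman and -0.95 to 0.28 in naive Holstein-Friesian skin. CKM, muscle creatine kinase, rose in Brahman skin, by 1.25 (adjusted p = 0.01), and ACTA1, skeletal actin, was -3.91 (adjusted p = 0.0525). None of the 4 measured keratinocyte markers passed. The part of these cells in the members' values was not tested.

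The genes whose profile over the 12 arrays was closest to each member, by the root mean square difference in log2 after centring, are given as a description for the brightest probe set of each. They were sought among named probe sets of other genes with an SD over the arrays of at least 0.5. CCDC80 was nearest to DSE, an enzyme of dermatan sulfate synthesis, at 0.29, and PCOLCE, an enhancer of procollagen processing, at 0.33. OLFML3 was nearest to NREP at 0.24 and COPZ2 at 0.27. FBLN5 was nearest to TIMP2, an inhibitor of matrix metalloproteinases, at 0.17, and TNC to PDGFRA at 0.39. THBS2 was nearest to PKIG at 0.35 and MSR1 at 0.36, SPARC to TENT5B at 0.24, and THBS1 Bt.5301.1.S1_at to LOC407171 at 0.23 and UGDH, which makes a precursor of hyaluronan, at 0.24. POSTN was nearest to ABLIM1 at 0.71, against its own SD of 1.53 over the arrays. The SD was 0.48 for THBS1 Bt.5301.1.S1_at and 0.54 for SPARC, so small differences from these 2 say less. It was 0.79 for OLFML3, 0.80 for FBLN5, 1.02 for THBS2, 1.10 for TNC and 1.30 for CCDC80.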

How the data were processed

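Skin RNA from 12 cattle was measured on 12 Affymetrix bovine arrays. The authors deposited log2 expression values for 24128 probe sets, made with RMA per the submitters' processing notes. Detection calls and scanner files were not used here. The precision is limited by how many arrays there are, and how far each signal stood above background is unknown. Array medians lay between 6.58 and 6.73. After 112 control probe sets were left out, 24016 were fitted with limma 3.58.1 in R 4.3.3 (4 group means, 8 residual degrees of freedom, 5 contrasts, two-sided, Benjamini-Hochberg over all probe sets, threshold 0.05). Probe sets were named from GEO's platform annotation: 13292 had 1 symbol, 86 several and 10638 none. Symbols were checked against a RefSeq gene table, in which 13263 probe sets matched by gene ID. A gene of the lists was read by its brightest probe set. No sequence was analysed here.

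The members and the 4 lists were chosen with earlier results of these data known. Of each list, up to 6 genes past the threshold with the largest differences are named, and up to 2 that did not pass. Marker levels are means of log2 values over a list, each relative to the mean of the naive animals. No 2 arrays shared more than 0.104% of values. Same-numbered infested and naive Holstein-Friesian animals deviated together (correlations 0.11 to 0.25 over probe sets), which no label explains, and same-numbered Brahman animals did not (-0.19 to -0.05), so a fit with the replicate number as a block was an alternative. Other alternatives were median centring, cyclic loess, a filter on the dimmest 40% of probe sets, array weights, another prior, only the compared arrays, the RNA integrity index as a covariate or without its 2 lowest arrays, and each array left out. The fit was tested on simulated data.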

Additional observations from a re-analysis of the deposited data

How the results depend on the processing

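Of 2472 values recomputed for 119 results, 87 changed sign, none of them for a called difference: 55 were infestation effects of members or their breed difference, and 32 were tested differences, given below. The values of partner genes under these settings were added after the data were seen. Members were picked on the infestation contrasts, so their counts there are descriptions. Of the partner genes' calls, 10 of 16 in Brahman and 0 of 10 in Holstein-Friesian skin passed with each array left out. For infested against naive Holstein-Friesian skin, called members were 8 without the 2 arrays of lowest integrity index (infested Brahman replicate 1 and infested Holstein-Friesian replicate 1) and 2 to 5 with 1 array left out (2 without naive replicate 1), and called partner genes were 28 with array weights, 23 without those 2 arrays and 1 to 19 with 1 left out (1, THBS4, without naive Holstein-Friesian replicate 1). For infested against naive Brahman skin, called partner genes were 9 with only the 6 arrays compared, 10 with the index as a covariate and 10 to 20 with 1 left out (10 without naive replicate 2), and called members 7 to 8. For the breed difference in the effect, called members were 1 with cyclic loess, 2 with array weights, 2 without the 2 arrays and 0 to 2 with 1 left out, and partner genes 5, 8 and 0 to 1 with array weights, without the 2 arrays and with 1 left out. Between naive breeds, members were 2 with array weights and partner genes 1 with the 6 arrays and 4 with array weights. Between infested breeds, members were 1 with cyclic loess, 0 with the 6 arrays, 0 with the index and 0 to 3 with 1 left out, and partner genes 2 with array weights, 8 without the 2 arrays and 0 to 2 with 1 left out. With the replicate block, called members stayed at 5 in Holstein-Friesian and 7 in Brahman skin, and called partner genes were 8 (CCN2 and ITGB6 were lost) and 16, and no other named call changed. Among tested differences the values that changed sign, between infested breeds (Brahman minus Holstein-Friesian), were 0.10 for THBS1 Bt.5301.2.S1_a_at, 0.61 for SPARC, 0.15 for POSTN, 0.25 for CCDC80 Bt.5092.3.S1_at and -0.018 for FBLN5 with the index, 0.13 for SPARC and -0.00045 for FBLN5 with array weights, and 0.21 for SPARC without the 2 arrays. With array weights THBS2 was 0.17 between naive breeds. In Brahman skin THBS4 was -0.25 and CD36 -0.13 with the index, CCN2 -0.094 with array weights, and ELN 0.43, 1.19 and 0.70 with array weights, the index and without the 2 arrays, and in Holstein-Friesian skin EFEMP2 was -0.087 without them. With 1 array left out, the infested breed difference ran from -0.37 to 0.040 for CCDC80 Bt.5092.3.S1_at, -0.025 to 0.26 for FBLN5, -0.53 to 0.34 for SPARC, -0.54 to 0.0090 for THBS1 Bt.5301.1.S1_at, -0.77 to 0.32 for THBS1 Bt.5301.2.S1_a_at, -0.41 to 0.027 for THBS2 and -0.0058 to 0.19 for TNC Bt.5244.1.A1_at. The naive one ran from -0.17 to 0.071 for CCDC80 Bt.5092.3.S1_at, -0.32 to 0.040 for THBS1 Bt.5301.2.S1_a_at, -0.15 to 0.0016 for THBS1 Bt.8563.1.S2_at and -0.17 to 0.021 for TNC Bt.5244.1.A1_at, and the infestation effect from -0.087 to 0.27 for EFEMP2 in Holstein-Friesian and -0.60 to 0.70 for ELN in Brahman skin. The cause was not tested. How far signals stood above background is unknown, and 3 animals per group limit every comparison.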
